A study of Homo sapiens with 4 samples.

Results

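The loci of 8 regulators of blood cell formation (TAL1, LMO2, GATA2, RUNX1, MYB, MYC, BCL11A and KIT) were examined for H3K9me2, histone H3 dimethylated at lysine 9, in K562 cells. The genes were chosen by name, and each locus was the gene body on hg19 with 100 kb on each side, between 205.37 and 461.5 kb in all. The 4 deposited lists held 1024 peaks at these loci out of 1000000. Of these, 271 and 260 were in control replicates 1 and 2, and 234 and 259 in CUX1 knockout replicates 1 and 2.

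H3K9me2 is laid down mainly by the methyltransferases G9a and GLP, spreads over broad stretches of chromatin, and is generally associated with silent genes. TAL1, LMO2 and GATA factors bind DNA together in a complex that drives genes of stem cells and red cell precursors. RUNX1 and MYB are transcription factors of stem and progenitor cells, and KIT is the receptor on those cells for stem cell factor. BCL11A silences fetal globin genes, and MYC drives growth and division. CUX1, the gene targeted here, encodes a homeodomain transcription factor that is recurrently lost in myeloid neoplasms.

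K562 is an established human myeloid leukemia line. The 2 control libraries came from K562 cells given a CRISPR guide against HPRT and the 2 knockout libraries from K562 cells given a guide against CUX1. All were made by CUT&RUN, where an antibody-guided nuclease frees the marked chromatin for sequencing. Whether the edited cells were clones or pools, and whether replicates came from separate cultures, is not stated in the labels, so p-values measure only the spread between these libraries, which may be technical. Peak lists of a histone mark carry no measure of CUX1 loss or of cell identity, and the labels were taken as given.

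Each list held 250000 peaks, and knockout replicate 1 stood apart. Its peaks covered 13.9% of chromosomes 1 to 22 and X, against 22.8% and 22.4% for the controls, and 19.3% for knockout replicate 2. Its median peak width was 1324 bp, against 1900 to 2335 bp in the others. Read depth was not given, so the precision it gives is unknown. Few peaks of any list had an authors' q under 0.05. These were 17 in control replicate 1, 312 in control replicate 2, 9 in knockout replicate 1 and 460 in knockout replicate 2. Nearly all peaks counted below as coverage thus fell short of that limit, and percent covered is no firm measure of the level of H3K9me2.

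GATA2 was sparsely covered, and the other loci mostly lay above the genome's typical level. The median coverage of the 8 loci, that is the percent of bases under at least 1 peak, was 43.0% and 33.7% for the controls against 18.7% and 33.5% for the knockouts, replicate 1 first as in all pairs of values below. The genome was also cut into tiles of 300 kb, of which 9278 with a mean coverage of at least 1% and no locus in them served for comparison. Their medians were 26.4%, 27.0%, 16.3% and 23.3% in the order control 1, control 2, knockout 1, knockout 2. In both controls and in knockout replicate 2, 7 of the 8 loci lay above the tile median, with GATA2 below. In knockout replicate 1 it was 6, with MYC also below.

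**Figure D1:**
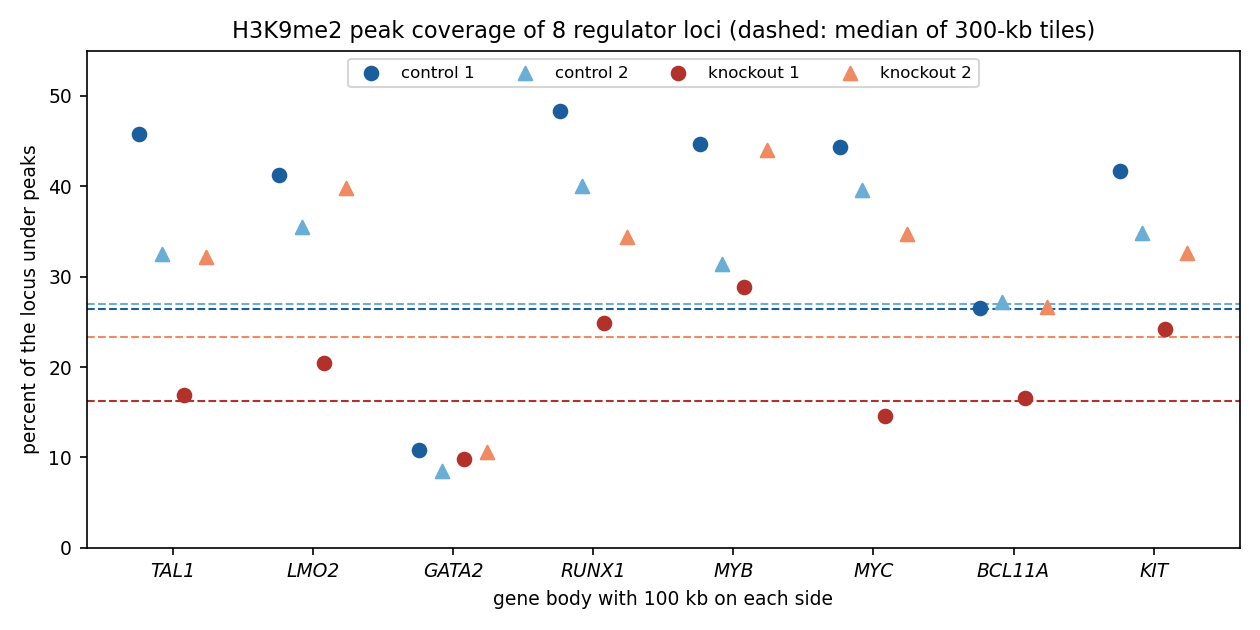
Percent of each locus (gene body with 100 kb on each side) under H3K9me2 peaks in the 4 libraries, with dashed lines at the median of 300-kb tiles in the library of the same color. GATA2 sits at 8.47% to 10.8% in all 4 libraries, and knockout replicate 1 is the lowest of the 4 at the other 7 loci.

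Of TAL1, LMO2 and GATA2, named above for the TAL1 complex, GATA2 was the least covered in every library. TAL1, a basic helix-loop-helix factor, has its body on chromosome 1 from 47681963 to 47698007 on the minus strand. Peaks covered 45.8% and 32.5% of its locus in the controls, against 16.97% and 32.1% in the knockouts. Control replicate 1 was high and knockout replicate 1 low, while control replicate 2 and knockout replicate 2 were almost level. Ranked among the tiles of its own library, the locus lay at percentiles 98.4 and 67.1 in the controls against 53.8 and 82.8 in the knockouts.

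LMO2, the LIM-only adaptor that bridges TAL1 and GATA factors, has its body on chromosome 11 from 33880123 to 33913836 on the minus strand. Coverage of the locus was 41.3% and 35.5% in the controls against 20.5% and 39.9% in the knockouts. The groups overlapped, since knockout replicate 2 lay between the controls. Its percentiles among tiles were 91.3, 77.4, 74.9 and 98.5 in the order control 1, control 2, knockout 1, knockout 2.

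GATA2, the zinc finger factor of stem and progenitor cells, has its body on chromosome 3 from 128198265 to 128212030 on the minus strand. Its locus was covered to 10.8% and 8.47% in the controls against 9.82% and 10.6% in the knockouts. That was a fraction of each library's own level, with ratios to the whole of chromosomes 1 to 22 and X of 0.474 and 0.379 in the controls against 0.704 and 0.549 in the knockouts. Between 11 and 13 peaks touched the locus in each library, against 16 to 66 at any of the other loci. No base of it was under a peak in all 4 libraries, and 68.7% was under a peak in none.

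RUNX1, the DNA-binding partner of CBFB, has the longest body of the set, on chromosome 21 from 36160098 to 36421595 on the minus strand. The locus as a whole had 48.3% and 40.01% in the controls against 24.9% and 34.3% in the knockouts. In both controls it was the most covered of the 8 loci. It ranked high among tiles throughout, at percentiles 99.5 and 90.9 in the controls against 93.7 and 89.7 in the knockouts.

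MYB, a factor that keeps progenitors immature, has its body on chromosome 6 from 135502453 to 135540311 on the plus strand. The MYB locus had 44.6% and 31.4% in the controls against 28.9% and 44.0% in the knockouts. It was the most covered of the 8 loci in both knockout libraries. Its percentiles among tiles were 97.1 and 63.7 in the controls against 99.1 and 99.8 in the knockouts, so by rank both knockouts lay above both controls. The same held at BCL11A and at GATA2, whose percentiles were 20.1 and 20.1 in the controls against 23.7 and 24.5 in the knockouts. The share of tiles that did so was not computed.

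MYC, the growth-promoting helix-loop-helix factor, has the shortest body of the set, on chromosome 8 from 128748315 to 128753680 on the plus strand. The MYC locus had 44.3% and 39.6% in the controls against 14.6% and 34.8% in the knockouts. Its percentiles were 96.7 and 90.0 in the controls, 41.9 in knockout replicate 1 and 90.8 in knockout replicate 2. By rank it was thus low in knockout replicate 1 alone.

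BCL11A, the fetal globin repressor, has its body on chromosome 2 from 60684329 to 60780633 on the minus strand. Coverage of its locus was 26.6% and 27.2% in the controls against 16.6% and 26.6% in the knockouts, close to the median tile in 3 libraries (percentiles 50.5, 50.6 and 51.9) and at percentile 62.0 in knockout replicate 2. KIT, the receptor tyrosine kinase, has its body on chromosome 4 from 55524095 to 55606881 on the plus strand. The KIT locus had 41.7% and 34.8% in the controls against 24.2% and 32.6% in the knockouts, with percentiles of 92.2, 75.3, 91.6 and 84.4.

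Ordered by control means, RUNX1 stood at 44.2% ± 5.88, MYC at 41.97% ± 3.34, TAL1 at 39.2% ± 9.42, LMO2 at 38.4% ± 4.12, KIT at 38.3% ± 4.83 and MYB at 38.04% ± 9.33 (SD, n = 2 each). These neighbours did not differ beyond their spread. BCL11A followed at 26.9% ± 0.426 and GATA2 at 9.64% ± 1.66, and each lay below all loci before it in both control libraries. Knockout means ran from 36.4% ± 10.7 for MYB and 30.2% ± 13.7 for LMO2 to 21.6% ± 7.08 for BCL11A and 10.2% ± 0.533 for GATA2 (SD, n = 2 each). GATA2 was the lowest of the 8 in each library.

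The low coverage of GATA2 was shared by its surroundings. Each locus was set beside the 300-kb tiles within 3 Mb of its body, a comparison chosen after the values were seen. Around GATA2, 19 tiles had a median coverage of 9.03% and 6.95% in the controls against 8.93% and 6.10% in the knockouts. The locus itself was slightly above those medians in all 4 libraries, by 0.888 to 4.47 percentage points. The highest of these tiles reached 20.4%, in knockout replicate 1, which is above the median of 16.3% over all tiles of that library. Around the other 7 loci the medians lay between 25.2% and 41.4% in the controls.

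KIT, like GATA2 and RUNX1, stood above the median of its surroundings in all 4 libraries. RUNX1 exceeded its local median by 6.97 and 0.0799 points in the controls against 4.13 and 0.655 points in the knockouts. For KIT the median of 19 surrounding tiles was 27.1% and 25.2% in the controls against 20.3% and 26.9% in the knockouts. The KIT locus exceeded it by 14.6 and 9.65 points in the controls against 3.89 and 5.67 points in the knockouts. Both knockouts thus lay below both controls in this difference. For MYB the order was the opposite. Its locus differed from the median of 19 tiles by 5.27 and -3.82 points in the controls but by 7.57 and 13.5 points in the knockouts, where it was above all 19 tiles in both libraries. LMO2 was above all 20 of its tiles in control replicate 1 and knockout replicate 2, but above 8 of 20 in knockout replicate 1. BCL11A differed from its local median by -5.29 and -5.57 points in the controls, -3.35 in knockout replicate 1 and 0.922 in knockout replicate 2. At BCL11A too, both knockouts thus lay above both controls, and the groups overlapped at the remaining loci. The share of tiles whose groups separate in this way against their own surroundings was not computed.

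**Figure D2:**
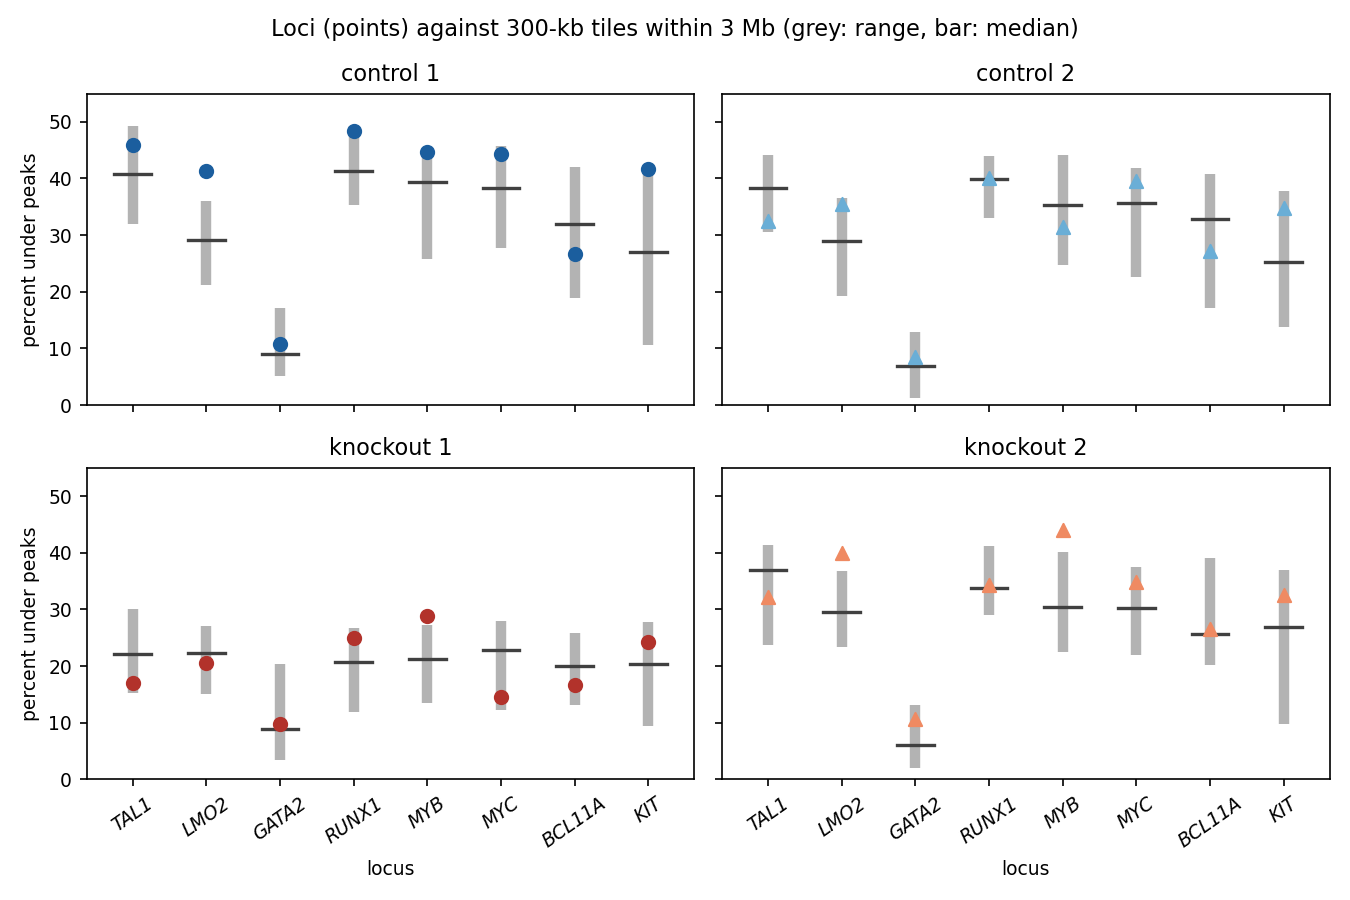
Percent of each locus under peaks (points) in each library, beside the range (grey) and median (bar) of the 300-kb tiles within 3 Mb of the gene body. Tiles around GATA2 reach at most 20.4%, in knockout replicate 1, and MYB lies above its whole range in both knockout libraries.

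The comparison of knockout with control asked whether these loci carried less H3K9me2 in cells without CUX1, since the series is titled for such a reduction. The mean coverage was lower in the knockouts at 7 of the 8 loci, with differences from -1.63 points at MYB to -17.3 at MYC, and higher by 0.553 points at GATA2. It was also lower in 85.7% of the 9278 tiles, so a count of 7 of 8 was close to the background. The median difference over the 8 loci was -9.03 points, and it was -6.20 points over the 9278 tiles. Both knockouts lay below both controls at 4 loci, namely TAL1, RUNX1, KIT and MYC, where 53.2% of all tiles and loci did so. A count of 4 of 8 was close to that background.

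No locus passed the test. In a limma fit across the tiles and loci, 0 of the 8 loci and 2.96% of all 9286 features had an adjusted p under 0.05, and 2 loci, TAL1 and MYC, had an unadjusted p under 0.05, as did 18.9% of all features. MYC differed by -17.3 points (SE 7.45, limma adjusted p = 0.197), TAL1 by -14.6 (SE 6.96, limma adjusted p = 0.241) and RUNX1 by -14.6 (SE 9.07, limma adjusted p = 0.336). KIT and LMO2 differed by -9.87 and -8.19 points (limma adjusted p = 0.418 and 0.513), and BCL11A and MYB by -5.28 and -1.63 (limma adjusted p = 0.575 and 0.925). The exact permutation test on any such value gives 0.333 at the least with 2 libraries against 2.

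Most of these differences leaned on knockout replicate 1. Without it they were -7.20 points at MYC, -7.02 at TAL1, -9.82 at RUNX1, -5.65 at KIT and -0.277 at BCL11A, and positive at LMO2 (1.49), MYB (5.93) and GATA2 (0.930). Without knockout replicate 2, 5 loci passed (TAL1, LMO2, RUNX1, KIT and MYC), in a fit that called 40% of all features. With 1 limit of the caller's p for all lists, 7 of the 8 loci were higher in the knockouts, and with 1 limit of q all 8 were. The direction thus depended on that limit.

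In windows of 100 kb, 31 overlapped a locus and 0 of these passed in limma, against 0.098% of 27547 windows, while 3 of the 31 had an unadjusted p under 0.05, as did 14.99% of all windows. Mean coverage was lower in the knockouts in 26 of the 31, beside 85.7% of the 300-kb tiles, and both knockouts lay below both controls in 13, where 43.3% of all windows did so. The 3 with the smallest p were at the upstream side of RUNX1 (chromosome 21, 36500001 to 36600000), over the start of LMO2 (chromosome 11, 33900001 to 34000000) and over TAL1 (chromosome 1, 47600001 to 47700000). At RUNX1 the window held 46.3% and 43.1% in the controls against 22.1% and 26.6% in the knockouts (limma adjusted p = 0.254). At LMO2 it held 48.8% and 39.99% in the controls against 15.4% and 34.2% in the knockouts (limma adjusted p = 0.274). At TAL1 it held 51.02% and 29.2% in the controls against 13.6% and 32.5% in the knockouts, and the groups overlapped (limma adjusted p = 0.307).

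Gene bodies were neither always lower nor always higher than their flanks. The body was lower than its flanks in 5, 6, 5 and 4 of the 8 genes in control 1, control 2, knockout 1 and knockout 2. MYB and TAL1 were the genes whose body was lower in all 4 libraries. The body of MYB was covered to 37.7% and 23.04% in the controls against 19.4% and 42.5% in the knockouts, and the difference of body minus flanks was -8.21, -10.004, -11.2 and -1.76 points in the order of libraries above. For TAL1 this difference ran from -2.80 to -0.588 points.

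MYC had the largest group difference between body and flanks. Its 5366-bp body was covered to 67.4% and 41.2% in the controls against 8.93% and 30.8% in the knockouts. Body minus flanks was 23.7 and 1.66 points in the controls, but -5.82 and -4.07 points in the knockouts. Both knockouts lay below both controls in this contrast, which is taken within each list (exact permutation p = 0.333, the smallest possible). A single peak touched the body in each library, the one over the start in 3 of them and the one at the end of the gene in knockout replicate 1. In the same contrast both knockouts lay above both controls at BCL11A and at RUNX1. At BCL11A it was -6.66 and -1.87 points in the controls against -1.54 and 7.19 in the knockouts. The groups overlapped at the remaining genes. Body minus flanks was not computed for other genes or tiles, so these separations have no background.

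The body of GATA2 held no peak in control replicate 1 or knockout replicate 1 and was covered to 18.2% in control replicate 2 and 14.6% in knockout replicate 2. The body of RUNX1 was covered to 47.5% and 38.5% in the controls against 24.9% and 34.4% in the knockouts, and its difference from the flanks ran from -3.40 to 0.0317 points. The bodies of KIT (49.1%, 25.1%, 27.6% and 33.6%), LMO2 (44.4%, 25.4%, 22.4% and 18.1%) and BCL11A (22.1%, 25.9%, 15.6% and 31.5%, control 1, control 2, knockout 1, knockout 2) varied between replicates. For KIT and BCL11A this spread was larger than the difference between groups. The groups differed by -14.7 points at LMO2, and its controls (44.4% and 25.4%) lay further apart than that. At LMO2 both knockout bodies lay below both controls, and so they did at TAL1, RUNX1 and MYC. This was 4 of 8 bodies, close to the 53.2% of all 300-kb tiles and loci that did so. At TAL1 the closest values were 31.96% in control replicate 2 and 31.6% in knockout replicate 2.

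The 100 kb upstream of the start were lower in both knockouts than in both controls at 6 of the 8 loci, and the 100 kb downstream of the body at 2. All 100-kb windows did so in 43.3%. Upstream of MYC coverage was 45.1% and 48.3% in the controls against 11.9% and 37.7% in the knockouts. Upstream of RUNX1 it was 45.1% and 47.9% in the controls against 20.4% and 33.3% in the knockouts. Upstream of BCL11A it was 29.7% and 29.8% in the controls against 22.3% and 20.5% in the knockouts, with both replicates of each group close together. MYB and GATA2 were the exceptions.

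**Figure D3:**
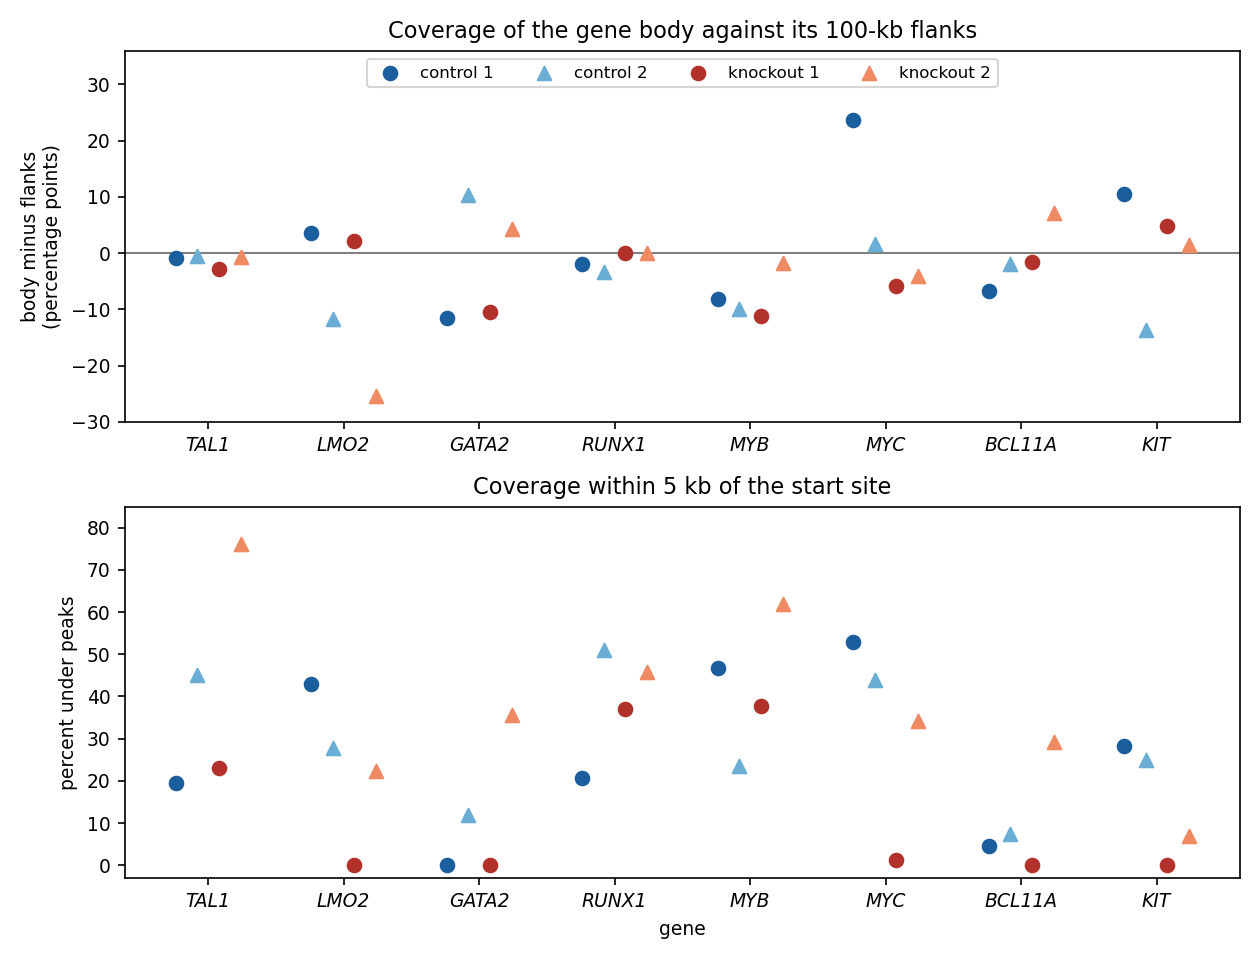
Upper panel, percent of the gene body under peaks minus percent of its 100-kb flanks, in percentage points. Lower panel, percent of the bases within 5 kb of the start site under peaks. Points are single libraries. MYC is at 23.7 points in control replicate 1 in the upper panel, and knockout replicate 1 is at 0% for LMO2, GATA2, BCL11A and KIT in the lower.

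The genes differed in how many libraries had a peak over the start site. The start was taken as the end of the body on the 5′ side of the strand. It lay under a peak in both controls and knockout replicate 2 for TAL1, LMO2 and MYC, in knockout replicate 2 alone for MYB and RUNX1, and in no library for GATA2, BCL11A and KIT. Counted by library, these were 3 of 8 starts in each control, 5 in knockout replicate 2 and 0 in knockout replicate 1. The share of all gene starts under a peak was not computed, so these counts have no direct background. Of all bases of chromosomes 1 to 22 and X, peaks covered 22.8% and 22.4% in the controls against 13.9% and 19.3% in the knockouts.

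Within 5 kb of the start, the mean coverage was higher in the knockouts at 5 of the 8 genes and lower at LMO2, KIT and MYC. The differences of knockout minus control were 17.3 points at TAL1, 14.6 at MYB, 11.8 at GATA2, 8.72 at BCL11A and 5.71 at RUNX1, and the groups overlapped at each of these. They were -24.1 points at LMO2, -23.2 at KIT and -30.8 at MYC, where both knockouts lay below both controls (exact permutation p = 0.333 each, the smallest possible). Within 10 kb the difference turned negative at TAL1 (-5.14 points), MYB (-0.217) and RUNX1 (-2.47). It stayed positive at GATA2 (5.99) and BCL11A (11.8), and negative at LMO2, KIT and MYC. At GATA2 and BCL11A knockout replicate 1 had 0% within 5 kb, so the higher mean there came from knockout replicate 2. No such values were computed for all gene starts.

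The promoters of TAL1, whose start was under a peak in 3 libraries, and of GATA2 and KIT, whose starts never were, are shown for comparison. The sequences are from RefSeq on GRCh38.p14, from 250 bases before to 50 after the outermost start of the gene, 5′ to 3′ on the strand of the gene, and their coordinates are not those of the hg19 peaks. Capitals mark matches on either strand to any of 5 short motifs. CCAAT is bound by NF-Y and, in some promoters, by CUX1. The Cut repeats of CUX1 recognise ATCGAT. Sites of GATA factors were searched as AGATAA and, in a variant form, as TGATAA. The E-box, bound by helix-loop-helix factors such as TAL1, was searched as CANNTG. TAL1 is chr1:47232286-47232585 on the minus strand, GATA2 chr3:128493152-128493451 on the minus strand and KIT chr4:54657707-54658006 on the plus strand.
TAL1: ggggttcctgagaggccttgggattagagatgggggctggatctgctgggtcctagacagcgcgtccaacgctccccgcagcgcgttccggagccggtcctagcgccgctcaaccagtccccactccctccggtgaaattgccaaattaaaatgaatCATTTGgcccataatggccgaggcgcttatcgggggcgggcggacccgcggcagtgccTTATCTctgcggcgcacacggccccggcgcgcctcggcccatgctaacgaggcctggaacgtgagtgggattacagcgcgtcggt
GATA2: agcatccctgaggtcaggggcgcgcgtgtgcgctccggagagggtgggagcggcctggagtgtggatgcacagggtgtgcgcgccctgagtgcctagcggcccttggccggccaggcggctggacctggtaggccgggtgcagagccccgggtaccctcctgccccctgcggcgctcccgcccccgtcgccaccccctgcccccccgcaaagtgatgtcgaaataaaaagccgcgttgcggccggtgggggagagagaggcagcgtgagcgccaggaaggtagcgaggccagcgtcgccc
KIT: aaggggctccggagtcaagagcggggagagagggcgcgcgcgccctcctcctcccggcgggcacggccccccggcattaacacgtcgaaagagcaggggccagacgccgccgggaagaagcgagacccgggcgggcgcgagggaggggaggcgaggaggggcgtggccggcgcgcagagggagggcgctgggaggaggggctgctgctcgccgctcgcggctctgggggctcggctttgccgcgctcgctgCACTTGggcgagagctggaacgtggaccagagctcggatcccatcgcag

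The TAL1 promoter held 1 AGATAA match and 1 CANNTG match, KIT 1 CANNTG match, and GATA2 none of the 5 motifs. TAL1 and GATA2 each have a second entry in the table, for a start inside the gene, and there the matches were the other way round. The inner GATA2 promoter (chr3:128488481-128488780) held 1 match to CCAAT and 4 to CANNTG, and the inner TAL1 promoter (chr1:47231666-47231965) held none of the motifs. Of 35116 promoters of this length, 34.6% held the motif CCAAT and 0.763% the motif ATCGAT. The GATA motif AGATAA was found in 10.3%, its variant TGATAA in 7.53% and the E-box CANNTG in 68.7%. All 3 sequences were rich in CG dinucleotides, with 30 in TAL1, 29 in GATA2 and 38 in KIT, against a median of 14. Of the 8 genes, LMO2 and MYC had no entry in the table of promoters.

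At LMO2 the peak over the start was the strongest of its locus in each library that had it. By the authors' −log10 p it reached 2.09 in control replicate 1 (fold over background 2.16), 2.80 in control replicate 2 (fold 2.27) and 2.46 in knockout replicate 2 (fold 2.11). It ranked first among 32, 35 and 31 peaks of the locus. It ran from 33913158 to 33916036, from 33912452 to 33914917 and from 33912879 to 33915122. In knockout replicate 1 the nearest peak was 5410 bp from the start.

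At MYC a peak ran over the start from 128746631 to 128751929 in control replicate 1, from 128746131 to 128750526 in control replicate 2 and from 128746556 to 128749967 in knockout replicate 2. It was the strongest of the locus in control replicate 2 (−log10 p 2.59, fold 2.01) and knockout replicate 2 (2.33, fold 2.06), and ranked 12 of 28 in control replicate 1 (1.58, fold 1.79). Knockout replicate 1 had none there. A further peak at the end of the gene was present in all 4 libraries, starting past the end at 128754190 and 128754936 in the controls and at 128753970 in knockout replicate 2, and inside the body at 128753202 in knockout replicate 1. In the bases within 5 kb of the start, coverage was 53.0% and 44.0% in the controls against 1.14% and 34.1% in the knockouts. Within 10 kb it was 37.5% and 36.2% against 17.6% and 42.5%, and the groups overlapped.

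The peak over the start of TAL1 was 1847 bp wide in control replicate 1, 4513 bp in control replicate 2 and 6645 bp in knockout replicate 2. By the authors' −log10 p it ranked 19 of 31 in the locus in control replicate 1, 5 of 26 in control replicate 2 and 7 of 24 in knockout replicate 2. The strongest peak of the locus had its middle at -81.8, -81.5 and -81.9 kb from the start in the same 3 libraries, upstream and in the direction of STIL, the next protein-coding gene. In control replicate 2 it ran from 47778905 to 47780125 with a −log10 p of 4.91 and a fold of 2.86, and 140 of the 250000 peaks of that list were stronger. It was the only peak at the 8 loci in any library with a q under 0.05 (−log10 q 1.71). In knockout replicate 2 its −log10 p was 3.73 and in control replicate 1 it was 2.33. At least part of STIL lies within 100 kb of TAL1 on GRCh38.p14. The hg19 position of STIL was not available, so whether this peak lies over STIL was not determined.

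The start of KIT was bare for at least 1288 bp on either side in all 4 libraries, with the nearest peaks at 1357 and 1288 bp in the controls against 6160 and 2024 bp in the knockouts. Coverage within 5 kb was 28.4% and 24.9% in the controls against 0% and 6.96% in the knockouts. The nearest peaks to the start of GATA2 were at 11078, 2538, 13809 and 2250 bp, and to that of BCL11A at 3566, 1595, 8296 and 1675 bp, in the usual order. At RUNX1 a peak lay just upstream of the start in every library, and in knockout replicate 2 it ran over the start. It spanned 36422921 to 36424075 in control replicate 1 (−log10 p 3.35, fold 2.68) and 36422805 to 36426794 in control replicate 2 (3.29, fold 2.32). In the knockouts it spanned 36423289 to 36424006 (2.42, fold 2.35) and 36419611 to 36423967 (2.05, fold 1.88). In control replicate 1 it was the strongest of the locus, and 128 peaks of that list were stronger.

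**Figure D4:**
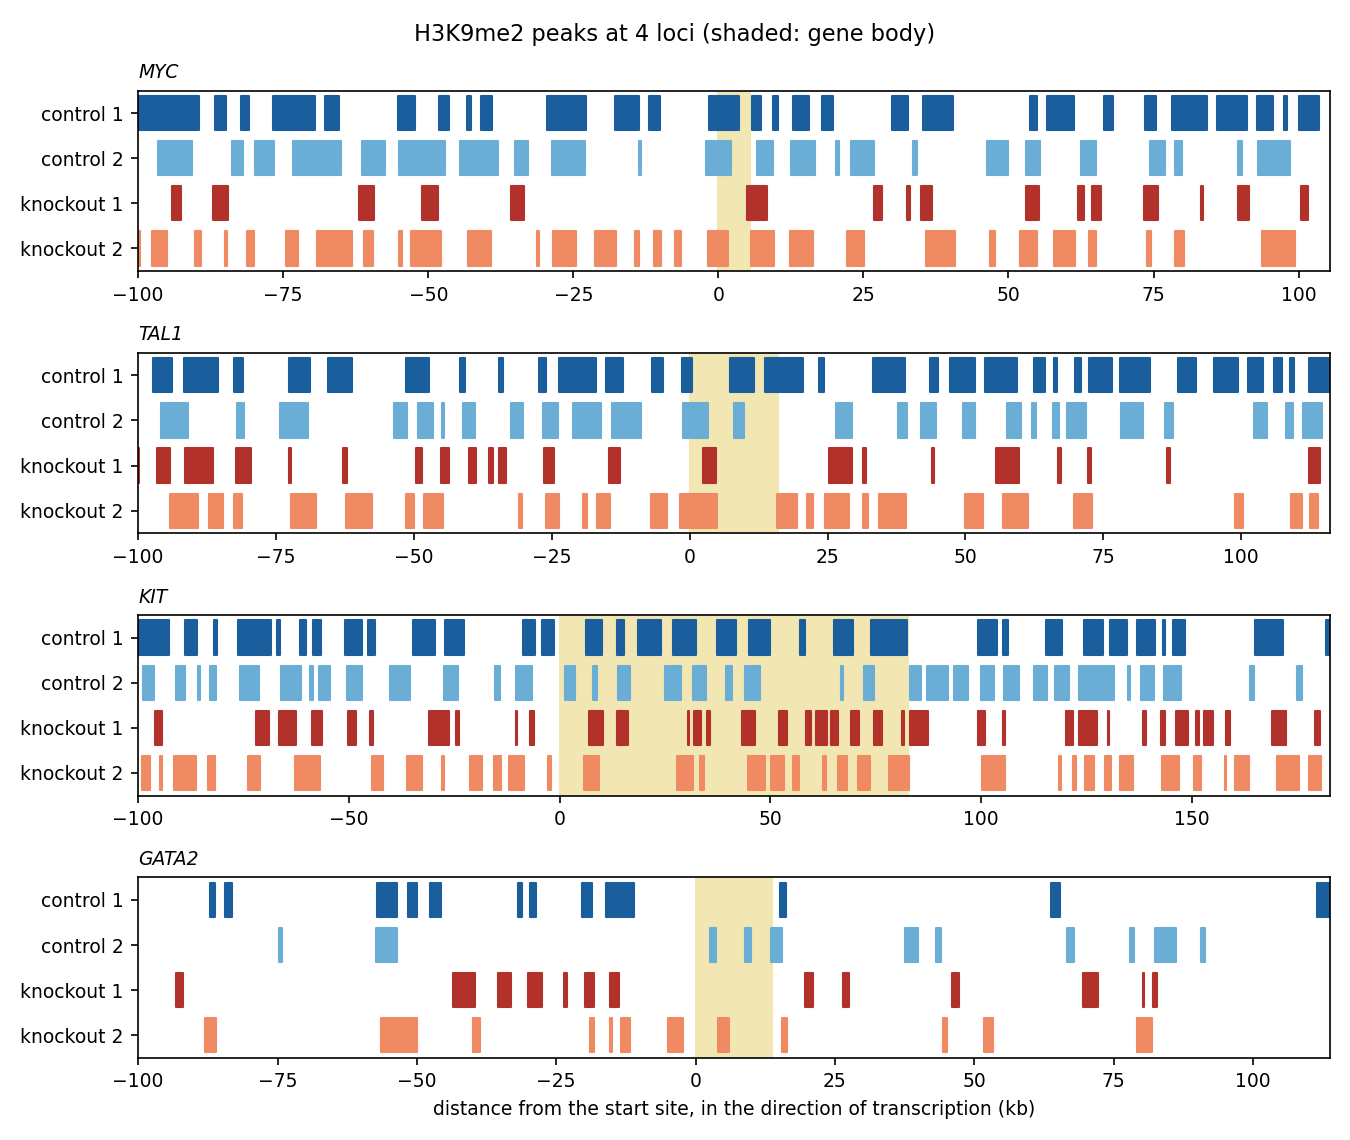
H3K9me2 peaks at MYC, TAL1, KIT and GATA2 in each library, drawn by distance in kb from the start site in the direction of transcription, with the gene body shaded. A peak crosses the start of MYC and of TAL1 in every library but knockout replicate 1, none crosses that of KIT or GATA2, and GATA2 has 11 to 13 peaks a library.

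Little of any locus was under a peak in all 4 libraries, from 0% at GATA2 and 0.247% at BCL11A to 3.65% at RUNX1 and 5.63% at MYB. The longest such stretch, 4268 bp, lay upstream of MYB, from 135466183 to 135470450 with its middle at -34136 bp from the start, on the side of HBS1L. The interval between HBS1L and MYB is known for distal enhancers of MYB. The next longest were at KIT (2181 bp, 55648694 to 55650874) and TAL1 (1930 bp, 47638596 to 47640525), both in the flank past the 3′ end of the gene. In RUNX1 the longest lay in the body, from 36367122 to 36369037.

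Stretches under a peak in both controls and neither knockout were commonest at RUNX1, with 8.76% of the locus or 40.4 kb, and made up 0.497% of the GATA2 locus. The longest was 3952 bp, downstream of TAL1 from 47615801 to 47619752. Stretches under a peak in both knockouts and neither control took 0.189% of the locus at MYC to 4.00% at LMO2, and the longest was 1838 bp, in the body of RUNX1 from 36370354 to 36372191. The first kind exceeded the second at all 8 loci, at GATA2 by 0.497% against 0.478%. The share of tiles where it did so was not computed. Mean coverage was lower in the knockouts in 85.7% of the 9278 tiles. Both knockouts lay below both controls in 53.2% of these tiles and above both in 3.04%. The knockout lists cover less of the genome as a whole, and the part of this in the counts was not tested.

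Replicates did not always share more bases than libraries of different groups did. Their Jaccard index (shared covered bases over all bases covered by the pair) at LMO2 was 0.333 between controls and 0.199 between knockouts, with 0.176 to 0.326 between groups. At MYC it was 0.298 and 0.134, with 0.119 to 0.409 between groups, and at GATA2 0.107 and 0.0413, with 0.00964 to 0.226. The lowest pair and the highest pair at MYC and at GATA2 were thus both pairs of a control with a knockout.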

How the data were processed

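H3K9me2 CUT&RUN was measured in 2 control and 2 CUX1 knockout libraries of K562 cells, grouped by the sample titles. The submitters' processing notes name hg19, MACS2 2.1.0, BWA 0.7.17, deepTools 3.5.1 and SAMtools 1.16.1. Settings and read depth are not stated there. The authors deposited 1 broad peak list per library, with a score per peak, a fold (ratio) of enrichment, and p and q as −log10 values. These are the authors' values and were used to rank or filter peaks within a list, or to set a common limit. The deposited peak names carry "sub" with a number in control replicate 1 and "cux1kd" in the knockouts, which the labels do not explain. Numbers in the peak names exceed the length of each list, so the lists hold part of the peaks called, and their weakest peaks differ in −log10 p (1.25, 1.27, 1.49 and 1.35 in the order control 1, control 2, knockout 1, knockout 2).

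Gene bodies came from the rule for the set, peaks past an hg19 chromosome end were found on 0 chromosomes (lengths from GenomeInfoDb 1.38.1), and neighbouring genes were read from RefSeq (GRCh38.p14, names only). Strands were entered by hand for all 8 genes and match the RefSeq promoters of the 6 genes listed there. Coordinates count from 1. Percent covered was computed in Python 3.11.15 for bodies, flanks of 100 kb, tiles of 300 kb and windows of 100 kb on chromosomes 1 to 22 and X. Tiles and loci, and windows, with a mean of at least 1% were tested with limma 3.58.1 (R 4.3.3). The fit was moderated with a mean-variance trend, with a threshold of Benjamini-Hochberg adjusted p under 0.05. A trial of the fit on simulated data used independent noise and no shift between whole libraries. That trial thus cannot show how the fit performs on these lists. Neighbouring features are not independent. For single values the exact permutation test was two-sided.

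All 8 genes are named, with the 3 windows of smallest p and the longest stretches per direction. The members and lists were chosen with earlier results of these data known. The comparison with surrounding tiles, the ranks of peaks at starts and the genes singled out were chosen after values were seen. A list of further hematopoietic genes was not analysed here, for want of an hg19 annotation.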

Additional observations from a re-analysis of the deposited data

How the results depend on the processing

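No locus passed in the fit with all libraries or under 11 of its alternatives, nor without any of 3 libraries, and 0 to 5 loci passed when 1 library was left out, the 5 without knockout replicate 2. For 100-kb windows at the loci the range was likewise 0 to 5. The median difference over the loci, -9.03 points, became 4.96 with 1 limit of −log10 p (1.49) for all lists, 6.73 with 1 limit of −log10 q (0.0335), 1.18 with lists cut to equal covered length and 1.502 after quantile normalization, which sets the 4 distributions equal. It stayed negative in the other settings, from -16.0 without knockout replicate 2 to -2.96 without knockout replicate 1. The p limit gave 4.77 points at TAL1, 4.22 at LMO2, 8.75 at MYB, 8.98 at BCL11A, 10.1 at KIT and 0.946 at MYC. The q limit gave 6.23, 8.57, 18.1, 7.23, 11.1 and 3.13 in the same order and 5.57 at RUNX1. Equal length gave 5.46 at LMO2, 9.90 at MYB and 6.34 at BCL11A, and quantile normalization 1.93, 9.21 and 1.89 there and 1.11 at KIT. MYB was also higher in the knockouts with peaks of at least 2000 bp only (0.353) and with flanks of 50 kb (4.18). Leaving out 1 library gave -17.9 to 1.49 at LMO2, -9.18 to 5.93 at MYB and -0.621 to 1.73 at GATA2. The cause was not tested. Adjusted p over all settings ran from 7.00e-07 to 0.918 at MYC, and its lowest was 0.116 once knockout replicate 2 was kept. Of the differences for bodies and flanks, 57 of 72 and 63 of 88 moved by less than the spread between replicates. These counts include settings without 1 library, which with 2 libraries a group cannot move a difference by more than that spread. Those cases were fixed in advance and show no stability. The 15 and 25 that moved further did so under a limit of p or q, at equal length or with flanks of 50 kb. Within 10 kb in place of 5 kb of the start, the difference was -6.82 in place of -30.8 points at MYC and -16.4 in place of -23.2 at KIT. It changed sign at TAL1 (17.3 to -5.14), MYB (14.6 to -0.217) and RUNX1 (5.71 to -2.47). Labels do not say that replicate numbers pair the libraries, and the correlation of same-numbered deviations was 0.112 over tiles. With the replicate block, 0 loci passed and 422 of 9286 features did, against 275 without it. That count was 0 without the trend, with either limit, at equal length or after quantile normalization, 115 with peaks of at least 2000 bp and 3719 without knockout replicate 2. The unknown read depth limits what peak absence can show.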
